A study of Mus musculus with 6 samples.

Results

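The matrix metalloproteinases (MMPs), the disintegrin metalloproteinases (ADAMs), their relatives with thrombospondin motifs (ADAMTS, with the ADAMTS-like genes) and the tissue inhibitors of metalloproteinases (TIMPs) were followed through the degeneration of spiral ganglion neurons (SGN) in the mouse cochlea. Members were all protein-coding genes named Mmp, Adam, Adamts or Timp in the GENCODE M21 annotation, which gave 83 genes: 22 Mmp, 33 Adam, 24 Adamts or Adamtsl and 4 Timp genes. Of these, 66 had at least 1 transcript in the deposited table, which covers 33676 genes in all, and 50 had enough counts to be tested, with 11 Mmp, 15 Adam, 20 Adamts or Adamtsl and 4 Timp genes among them. The other 17 members were not analysed here, among them Mmp2, Mmp7, Mmp8, Mmp16, Adamts13 and Mmp13, a collagenase that the study names for these samples.

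RNA came from C57BL/6 mice, from the modiolus, the central bone of the cochlea around the spiral ganglion and the auditory nerve. The degenerated group (T1 to T3) consisted of 3 libraries from young adult male mice given kanamycin and, shortly after, furosemide, a combination that destroys the hair cells and is followed by loss of SGN. The control group (C1 to C3) consisted of 3 libraries from mice given saline, and the degenerated tissue was taken about a month after the injections. No genetic change is labelled in either group. The labels do not say whether each library came from a separate animal or from pooled animals, so p-values measure only the spread between these samples. Libraries held 12480876 to 15549319 counts. The label calls the cell type spiral ganglion neuron, but the tissue was mixed. Summed neuronal markers took 11805 to 15200 CPM (counts scaled by library size) in the control and 7002 to 10427 CPM in the degenerated libraries. The fold change of degenerated over control was downward for 8 of the 11 neuronal markers tested and upward for 3. Summed Schwann cell markers took 5469 to 9669 CPM in the control and 4835 to 7642 CPM in the degenerated libraries. In such bulk tissue, fewer cells of a type and less RNA per cell cannot be told apart. Muscle genes such as Myh4 were seen in control replicate 3 (103 CPM) and at most at 0.474 CPM in any other library, and neutrophil and red cell transcripts varied widely between libraries in both groups.

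MMPs are zinc-dependent enzymes, secreted or anchored in the membrane, that cut collagens, gelatin, proteoglycans and other parts of the extracellular matrix. ADAMs sit in the membrane and release the outer parts of other membrane proteins, such as Notch receptors and growth factor precursors, while some members have lost the protease activity and act in adhesion. ADAMTS enzymes are secreted and cut proteoglycans such as aggrecan and versican or trim procollagens, and TIMPs bind and block the active sites of these enzymes. In injured nerve and in inflamed tissue, the balance of enzymes and inhibitors is known to shape matrix turnover, the entry of immune cells and the clearance of debris.

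Sequences upstream of the transcription start are given for 3 members: Adam10 and Mmp23, in which SGN degeneration and control separated in opposite directions, and Mmp3, a stromelysin that is a textbook target of the AP-1 factor. Each is the 250 bases before the RefSeq start in GRCm38.p6, written 5′ to 3′ on the strand of the gene, with matches to 4 motifs on either strand in capitals. The motifs were AP-1 (TGANTCA), the GC box (GGGCGG), the TATA box (TATAAA) and the E-box (CACGTG).
Adam10 (chr9:70678732-70678981, plus strand): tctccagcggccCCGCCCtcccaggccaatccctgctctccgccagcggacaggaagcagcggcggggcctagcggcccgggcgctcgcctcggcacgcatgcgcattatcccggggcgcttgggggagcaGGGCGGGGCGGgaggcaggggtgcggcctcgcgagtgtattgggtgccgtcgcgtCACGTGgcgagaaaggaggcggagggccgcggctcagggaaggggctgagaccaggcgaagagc
Mmp23 (chr4:155653385-155653634, minus strand): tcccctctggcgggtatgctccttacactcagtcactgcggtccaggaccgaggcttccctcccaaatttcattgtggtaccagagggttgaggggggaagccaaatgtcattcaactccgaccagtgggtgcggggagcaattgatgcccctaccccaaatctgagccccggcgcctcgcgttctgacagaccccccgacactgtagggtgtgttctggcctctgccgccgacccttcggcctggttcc
Mmp3 (chr9:7445572-7445821, plus strand): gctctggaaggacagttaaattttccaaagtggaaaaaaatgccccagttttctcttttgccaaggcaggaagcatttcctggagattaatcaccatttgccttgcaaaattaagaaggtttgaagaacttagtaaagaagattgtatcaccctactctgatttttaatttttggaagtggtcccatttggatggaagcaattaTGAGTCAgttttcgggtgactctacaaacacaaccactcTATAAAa
The Adam10 window, with a GC content of 74.0%, held 3 GC box matches, of which a pair overlaps by a base, and 1 E-box. The Mmp3 window, with a GC content of 37.6%, held 1 AP-1 match and 1 TATA box close to the start, and the Mmp23 window (61.2% GC) held none of the 4 motifs. Of the 50 tested members, 33 had a window in the RefSeq table, and 22 of these (66.7%) held a GC box, against 32.7% of all 32851 windows of the same length. AP-1 letters were found in 2 member windows (6.06%, against 6.75% of all), TATA letters in 3 (9.09%, against 12.4%) and E-box letters in 2 (6.06%, against 6.02%). Member windows came from genes with enough counts to be tested, with a single window per gene. The 32851 windows were not chosen by expression or gene type, so that the sets are unlike and their shares describe no trait of the family. These are matches of letters only, and Mmp9 and Mmp17 were not among the windows read.

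The first question was which of these genes the modiolus expressed. Levels are compared between genes as TPM, a measure scaled by library size and by length, over the transcripts that the table lists. The inhibitor Timp3, which is bound to the matrix, had the highest level among the 50 tested members, with a mean of 606 TPM over the 6 libraries. It was followed by Adamts1, a protease of versican and aggrecan, at 184 TPM, and by the sheddase Adam10 at 172 TPM. Adam23, a protease-dead adhesion protein of neurons, stood at 104 TPM, the gelatinase Mmp9 at 95.4 TPM, the membrane-type protease Mmp15 at 90.6 TPM, the sheddase Adam9 at 74.9 TPM and Adamts10 at 42.1 TPM. Of the 50 tested members, 26 had a mean above 10 TPM and 15 a mean under 3 TPM, and the lowest was Adam21 at 0.708 TPM.

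Some neighbours in this order did not differ beyond their spread. Adamts1 ranged from 51.1 to 283 TPM and Adam10 from 128 to 198 TPM, so that their ranges overlapped, while the lowest Timp3 library, at 422 TPM, lay above the highest Adamts1 library. Mmp9 ranged from 30.1 to 224 TPM and so overlapped with Adam23, at 62.2 to 131 TPM, and with Mmp15, at 62.9 to 112 TPM. Summed over each family, Timp transcripts took 444 to 680 TPM in the control libraries and 594 to 829 TPM in the degenerated libraries. The Adam sums were 395 to 587 and 519 to 586 TPM, the Adamts sums 204 to 512 and 332 to 479 TPM, and the Mmp sums 275 to 372 and 204 to 288 TPM. In all 4 families the sums of both groups overlapped.

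**Figure D1:**
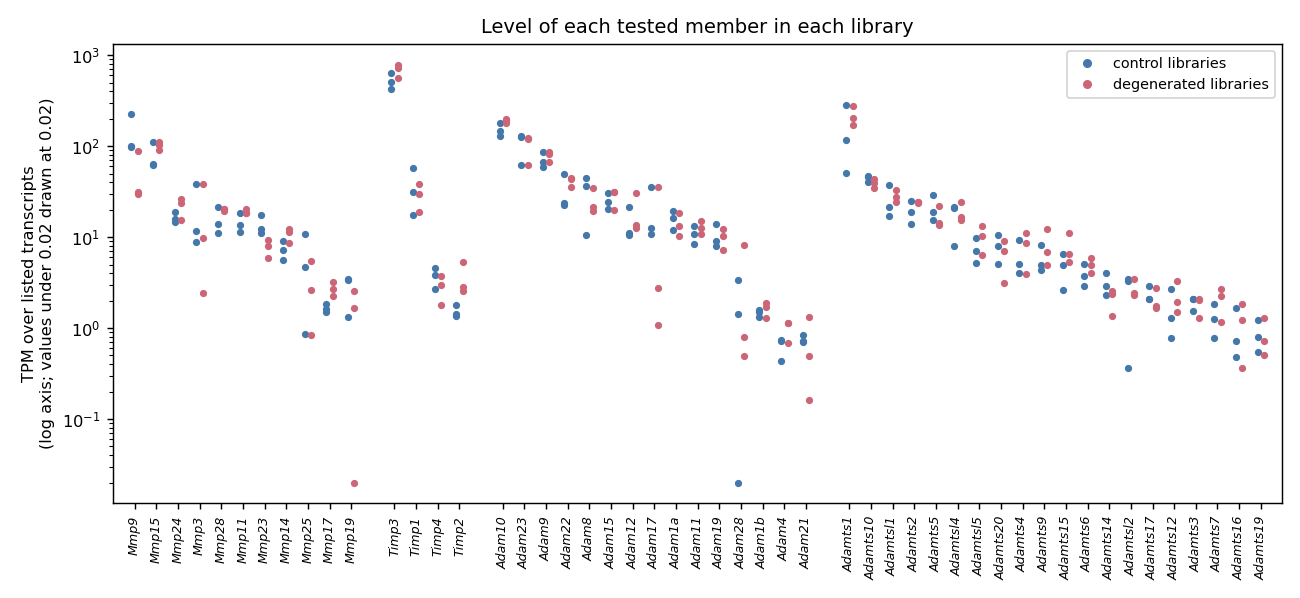
Level of each of the 50 tested members in each of the 6 libraries, in TPM over the listed transcripts on a log axis, grouped by family and ordered by mean level; points are single libraries, blue for control and red for degenerated, with values under 0.02 drawn at 0.02. Timp3 lies above every other member in all libraries, and most members have overlapping control and degenerated points.

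The second question was which members differed between degenerated and control modiolus. Genes were fitted with edgeR's quasi-likelihood F test, and calls were made in 2 ways. The unadjusted criterion asks for a p below 0.01 before adjustment and a log2 fold change beyond 0.2 in either direction. The study states it for its comparison of knockout with wild-type mice, and states none for the degeneration comparison made here. The adjusted criterion asks for a p below 0.05 after Benjamini-Hochberg adjustment across the 14118 genes that entered the test. None of the 50 members was called higher, against 284 of all genes (2.01%), and none was called lower, against 101 (0.715%). At the adjusted p of edgeR's test, 0 members and 0 of all genes (0.0%) passed, and the lowest adjusted p was 0.469 among members and 0.0719 among all genes. At an unadjusted p under 0.05 there were 2 members (4.0%), Mmp9 and Mmp23, against 1367 of all genes (9.68%). Over all genes, DESeq2 gave 383 genes and edgeR's exact test 115 at an adjusted p under 0.05, with 0 members among either, and limma-voom gave 0. DESeq2 and edgeR's exact test each called 1 of the 50 members, Mmp9, by the unadjusted criterion, and limma-voom called none. Of all genes, this criterion called 5.56% in DESeq2, 2.93% in the exact test and 2.76% in limma-voom.

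Most members lay close to 0, with no settled direction. The log2 fold change of degenerated over control was above 0 for 29 members and below 0 for 21, against 49.7% of all genes above 0, and the median was 0.11, against 0.0 over all genes tested. The median was -0.01 without control replicate 2, -0.07 without degenerated replicate 1 and -0.33 over the 7 members with every transcript listed. It was within 0.5 of 0 in 38 members (76.0%, against 68.5% of all genes) and beyond 1 in 4 members (8.0%, against 10.9%). The standard error of the log2 fold change had a median of 0.40 over the members, against 0.35 over all genes, and ran from 0.11 for Adam10 to 1.77 for Adam17, so that the precision differed widely from member to member. By family, the median was 0.24 in 11 Mmp genes, -0.04 in 4 Timp genes, 0.05 in 15 Adam genes and 0.23 in 20 Adamts genes.

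**Figure D2:**
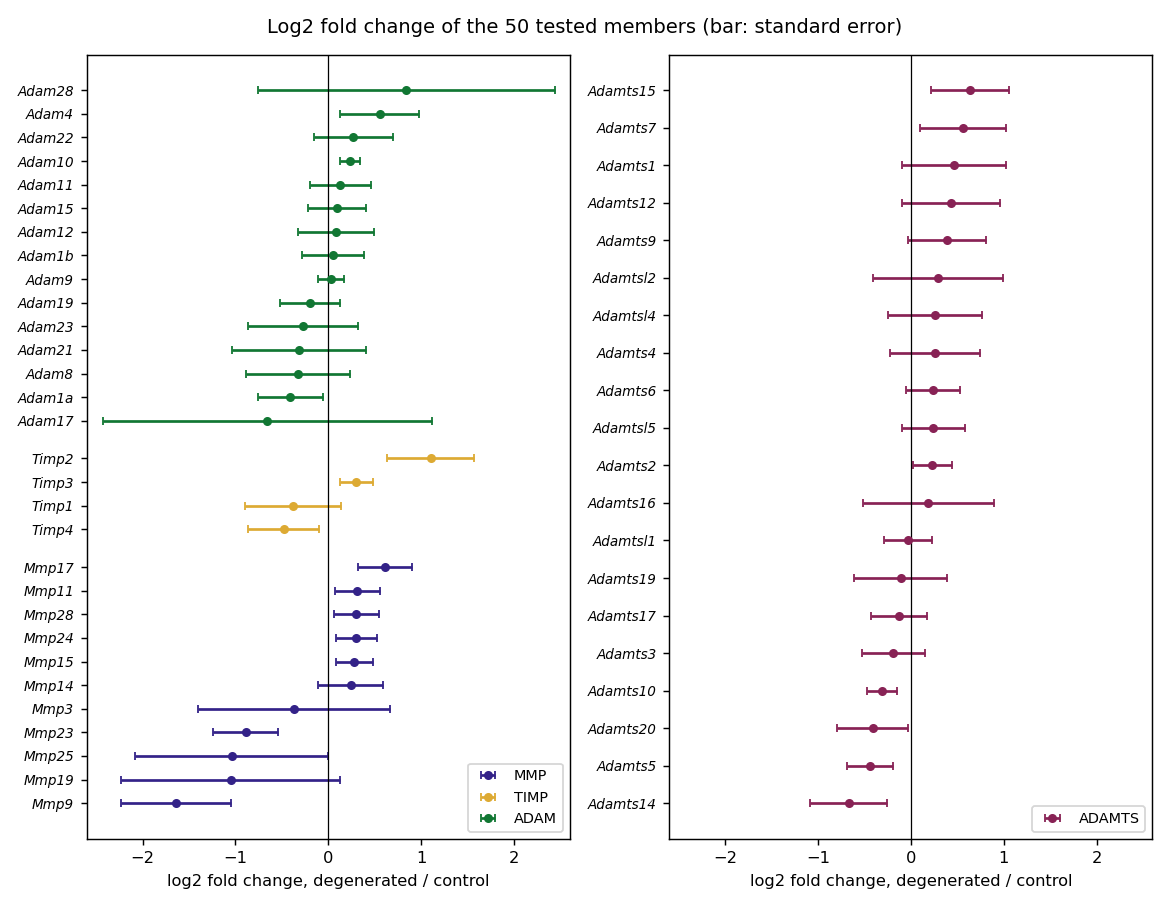
Log2 fold change of degenerated over control for the 50 tested members from edgeR's quasi-likelihood fit, by family; points are estimates and bars their standard errors. Adam10 has the shortest bar (0.11) and Adam17 the longest (1.77), and Mmp9 (-1.64) and Timp2 (1.1) lie farthest from 0 at either side of the plot among members whose libraries did not overlap.

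The degenerated libraries lay entirely above the control libraries for 3 members, Timp2, Mmp17 and Adam10, and entirely below for 2, Mmp9 and Mmp23. Over all genes tested, 10.3% lay entirely above and 7.37% entirely below, so that the 5 members (10%) compare with 17.7% of all genes. No exact permutation test of 3 against 3 libraries can give a two-sided p below 0.1.

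Mmp9, a secreted gelatinase that is stored in neutrophils and also made by osteoclasts and macrophages, had the largest difference of all tested members. Its level was 158, 414 and 178 CPM in control replicates 1 to 3 and 50.3, 48.7 and 142 CPM in degenerated replicates 1 to 3. All control libraries were above all degenerated libraries, although control replicate 1 and degenerated replicate 3 were only slightly apart. The means of 250 ± 142 and 80.4 ± 53.6 CPM (SD, n = 3 each) gave a 3.11 times higher control mean, with a log2 fold change of -1.64 ± 0.59 (SE) and in edgeR's quasi-likelihood fit the adjusted p was 0.469. This gene, on chr2:164940780-164955850 (plus strand, GRCm38), was counted over a single protein-coding transcript of 4 annotated ones. Without degenerated replicate 3 its log2 fold change was -2.34 and it was called lower, with an unadjusted p of 0.00582 in the same test. That fit called 83 of 14675 genes lower. Without control replicate 2 the log2 fold change was -1.07, with an unadjusted p of 0.102 in the same test.

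Levels of blood and bone cell markers are given beside those of Mmp9. The 8 listed neutrophil markers summed to 255, 13409 and 6653 CPM in the control libraries and to 644, 1949 and 4639 CPM in the degenerated libraries. All 8 had a log2 fold change below 0, with 0 called by edgeR's test, and among them Cxcr2 was at 0 in control replicate 1 and in degenerated replicates 1 and 2. The highest Mmp9 library of each group was also the one with the most neutrophil transcripts of that group, but control replicate 1 had little neutrophil RNA and 158 CPM of Mmp9. Osteoclast markers summed to 131 to 292 CPM in the control and 52.8 to 112 CPM in the degenerated libraries, highest in control replicate 1, with all 5 tested ones below 0 and 0 called. One of them, Acp5, the acid phosphatase of osteoclasts, stood at 191, 40.3 and 60.9 CPM against 28.9, 0.563 and 3.16 CPM, and none of the osteoclast markers tested was at 0 in a library. Of 5 osteoblast markers tested, all had a log2 fold change below 0 and 4 had separate groups. Of these, 2, Bglap and Bglap2, were called lower, with log2 fold changes of -1.54 and -1.55. Over all genes, 7.37% had degenerated libraries entirely below the controls and 0.715% were called lower. The osteoblast list summed to 647, 1069 and 736 CPM in the control and 389, 300 and 514 CPM in the degenerated libraries. Red cell markers summed to 6400 to 41372 CPM in the control and 3479 to 16706 CPM in the degenerated libraries, with 0 called. The part of these cells in the Mmp9 difference was not tested.

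Other members that leukocytes are known to express had values spread as widely. Mmp25, a membrane-type protease first known from leukocytes, had 1.99, 28.4 and 11.8 CPM in the control and 1.98, 5.85 and 12.7 CPM in the degenerated libraries, which overlapped (log2 fold change -1.04 ± 1.04). Its order over the libraries within each group was that of the neutrophil markers. Adam8, a protease of myeloid cells, had 14.4, 53.6 and 65.2 CPM against 32.9, 45.9 and 27.1 CPM, also with overlap (-0.33 ± 0.56). In neither group was the order of Adam8 that of the neutrophil markers. The part of neutrophils in these values was not tested. Mmp12, the metalloelastase of macrophages, was listed at 0 counts in every library for the 3 of its 7 annotated transcripts that the table holds, so that the level of the whole gene was not measured here. Of 6 macrophage markers tested, 4 had a log2 fold change above 0. Among these, C1qb (0.69) and C1qc (0.63) were called higher (33.3% of the 6 markers, against 2.01% of all genes). The other two, Tyrobp and Cd68, had -0.52 ± 0.47 and -1.54 ± 1.11 and were not called, and Aif1, below the filter, had 15.1, 0.0707 and 16.2 CPM in the control and 0.137, 0.0 and 0.0 CPM in the degenerated libraries.

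**Figure D3:**
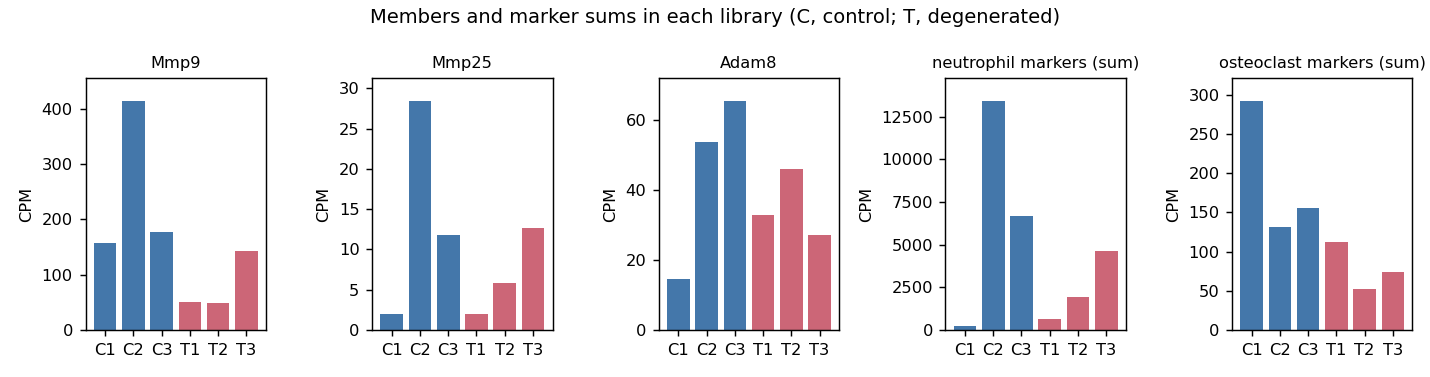
Mmp9, Mmp25, Adam8 and the summed neutrophil and osteoclast markers in each library, in CPM on linear axes that start at 0 (C, control; T, degenerated). Mmp9 and the neutrophil sum both peak in control replicate 2, at 414 and 13409 CPM, while the osteoclast sum peaks in control replicate 1, at 292 CPM.

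The other Mmp gene with separate groups was Mmp23, a membrane-bound protease that lacks the hemopexin domain of most MMPs. It had 7.28, 7.85 and 12.6 CPM in the control libraries and 4.04, 5.0 and 5.92 CPM in the degenerated libraries. Every degenerated library was below every control library, and control replicate 3 was the highest by far. The means of 9.26 ± 2.94 and 4.99 ± 0.942 CPM (SD, n = 3) gave a log2 fold change of -0.89 ± 0.35. By edgeR, the unadjusted p was 0.0411 and the adjusted p 0.492. Without control replicate 3 the log2 fold change of Mmp23 was -0.61, with an unadjusted p of 0.133 in the same test. Of its counts, 73.6% fell on the protein-coding transcript and the rest on transcripts with a retained intron.

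Membrane-type MMPs act at the cell surface, some of them by activating other MMPs. Of 5 tested, 4 had a log2 fold change above 0, against 49.7% of all genes, and 1, Mmp17, had separate groups. The exception was Mmp25, at -1.04 ± 1.04. Mmp17, anchored by a lipid tail, had 5.30, 5.59 and 6.57 CPM in the control and 9.03, 7.04 and 10.6 CPM in the degenerated libraries, so that all degenerated libraries were above all control libraries. Its log2 fold change was 0.61 ± 0.29, with an edgeR adjusted p of 0.573. Mmp15 had 289, 188 and 181 CPM against 248, 281 and 269 CPM, and the groups overlapped through control replicate 1. Its log2 fold change was 0.28 ± 0.20 over all libraries, and without control replicate 1 it was 0.52 and called higher with an edgeR p of 0.00469 before adjustment. That fit called 2 of 51 members and 339 of 14685 genes higher. Mmp24, known from neurons, had 42.0, 39.3 and 34.7 CPM against 35.2, 54.6 and 52.6 CPM (0.30 ± 0.22). Mmp14, the chief activator of the gelatinase Mmp2, was counted over 3 of 7 transcripts at 3.89 to 6.55 CPM in the control and 4.79 to 7.04 CPM in the degenerated libraries (0.24 ± 0.35). Of these counts, 82.2% fell on a transcript with a retained intron, 11.2% on a form subject to nonsense-mediated decay and 6.58%, or 30 counts, on the protein-coding form.

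Mmp3, a stromelysin that cuts many matrix proteins and activates other MMPs, was set by single libraries. It had 8.21, 12.3 and 38.0 CPM in the control and 9.30, 33.9 and 2.21 CPM in the degenerated libraries, with full overlap and a log2 fold change of -0.37 ± 1.03. Without control replicate 3, the library with muscle transcripts, the log2 fold change was 0.54. Mmp19 had 3.91, 4.46 and 1.66 CPM against 1.98, 2.82 and 0.0 CPM (-1.05 ± 1.18), and its log2 fold change was -2.22 in limma-voom and -0.48 to -1.75 with single libraries left out, lowest without degenerated replicate 2 and nearest 0 without degenerated replicate 3. Mmp11 and Mmp28 had log2 fold changes of 0.31 ± 0.24 and 0.30 ± 0.24.

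All 4 inhibitors were tested and none was called. Timp3 stood at 1549, 1159 and 1321 CPM in the control and 1951, 1674 and 1340 CPM in the degenerated libraries. Degenerated replicate 3 was within the control range and the other degenerated libraries were above it. The means of 1343 ± 196 and 1655 ± 306 CPM (SD, n = 3) gave a log2 fold change of 0.30 ± 0.18 and, by edgeR, an adjusted p of 0.651.

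Timp2, which with Mmp14 takes part in the activation of Mmp2, had the largest positive log2 fold change among members with separate groups, 1.1 ± 0.47 with an edgeR adjusted p of 0.530. This rests on few reads: 10, 8 and 9 counts in the control and 14, 14 and 25 counts in the degenerated libraries, or 0.566 to 0.662 CPM against 0.958 to 1.97 CPM. The counts belong to 1 of the 2 annotated transcripts, a form of 718 bases, so that the level of the whole gene was not measured here. Without degenerated replicate 3 the log2 fold change was 0.68. The remaining inhibitors had overlapping groups. Timp1, an inhibitor known to be induced by injury, had 13.4, 8.42 and 26.7 CPM against 17.0, 7.68 and 12.7 CPM (-0.38 ± 0.52), and Timp4 had 12.7, 12.2 and 8.23 CPM against 10.9, 7.89 and 4.97 CPM (-0.48 ± 0.38).

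Timp1, Timp3 and Timp4 each lie inside a synapsin gene on the opposite strand, a known arrangement of this family. Timp3 shares 1733 exon bases with Syn3 and Timp4 shares 90 with Syn2, while Timp1 shares none with Syn1. Syn3 was at most at 3.56 CPM in a library, far below Timp3, whereas Syn2 had 71.8 to 82.2 CPM in the control and 93.4 to 117 CPM in the degenerated libraries. The kit does not mark strand, so that reads of shared exon bases cannot be assigned to a strand. This held for 14 of the 50 tested members, each sharing exon bases with a gene on the opposite strand.

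**Figure D4:**
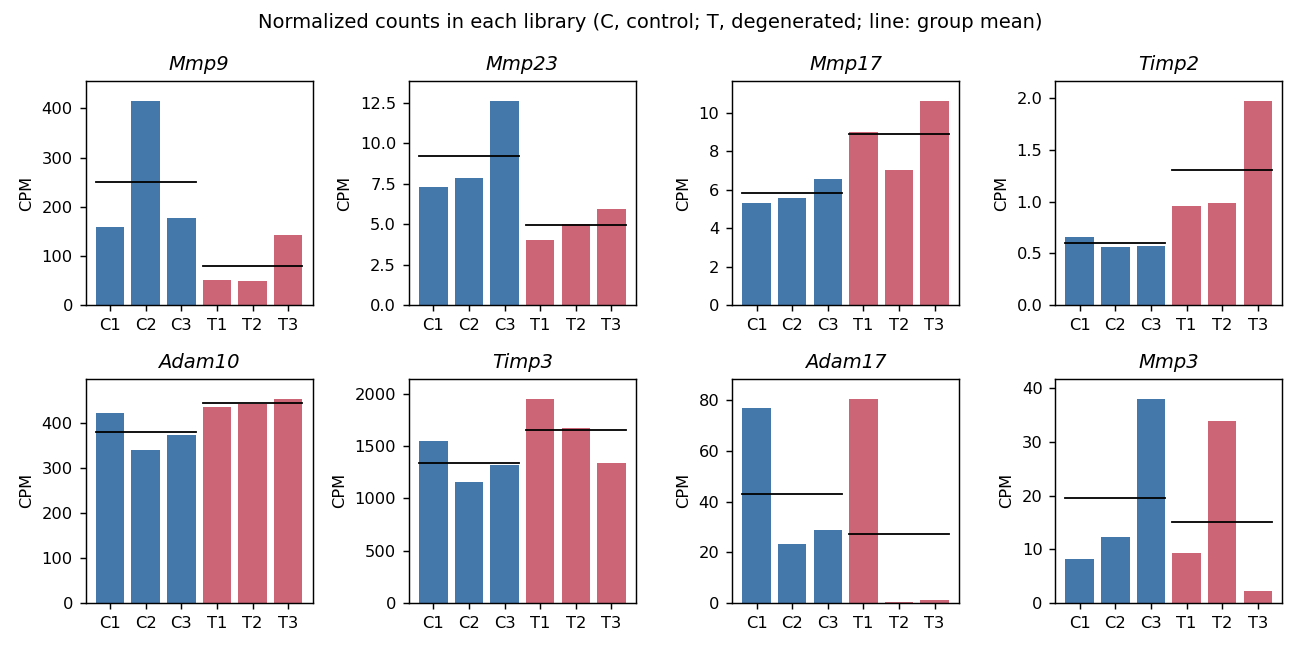
Normalized counts (CPM, linear axes from 0) of 8 members in each library (C, control; T, degenerated), with a line at the mean of each group. The libraries of both groups are separate in Mmp9, Mmp23, Mmp17, Timp2 and Adam10 and overlap in Timp3, Adam17 and Mmp3.

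Adam10, the main sheddase of Notch, of the prion protein and of the amyloid precursor in neurons, was measured most precisely of all tested members. It had 423, 340 and 374 CPM in the control libraries and 436, 442 and 453 CPM in the degenerated libraries. All degenerated libraries were above all control libraries, and they lay closer together than the controls. The means of 379 ± 41.5 and 444 ± 8.44 CPM (SD, n = 3) gave a 1.17 times higher degenerated mean, a log2 fold change of 0.23 ± 0.11 and, by edgeR, an adjusted p of 0.577. Of its counts, 99.3% fell on the protein-coding transcript. The related sheddase Adam9 had 176, 133 and 146 CPM against 139, 163 and 163 CPM, with a log2 fold change of 0.03 ± 0.14.

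Adam17, the sheddase of TNF and of EGF receptor ligands, could not be read as a gene level. Its 77.0, 23.2 and 28.8 CPM in the control and 80.5, 0.282 and 1.03 CPM in the degenerated libraries came to 94.8% from a transcript subject to nonsense-mediated decay, Adam17-203. That transcript had 1154, 202 and 446 counts in the control and 1169, 0 and 4 counts in the degenerated libraries, while the single listed protein-coding form held 3 counts over all libraries. The log2 fold change was -0.66 ± 1.77. Without degenerated replicate 1 it was -6.05 and called lower, with an edgeR p of 0.00192 before adjustment. That fit called 76 of 14616 genes lower. Without control replicate 1 the log2 fold change was 0.06.

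Adam22 and Adam23, receptors of the LGI proteins that stabilise synapses and myelinated axons, also depended on single transcripts. Adam23 had 186, 123 and 417 CPM in the control and 103, 167 and 334 CPM in the degenerated libraries, with a log2 fold change of -0.27 ± 0.59. Its high libraries were those where Adam23-205 held many counts: 29, 300 and 6207 in the control and 0, 0 and 3939 in the degenerated libraries. Adam22 had 150, 59.6 and 56.2 CPM against 133, 89.3 and 98.8 CPM (0.27 ± 0.43), and Adam22-202 held 736, 0 and 0 counts against 812, 0 and 700 counts. Without control replicate 1, Adam22 was among the 2 of 51 members called higher, in a fit that called 339 of 14685 genes higher. Adam28 stood at 0.0 to 5.74 CPM in the control and 0.789 to 12.1 CPM in the degenerated libraries (0.84 ± 1.60).

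**Figure D5:**
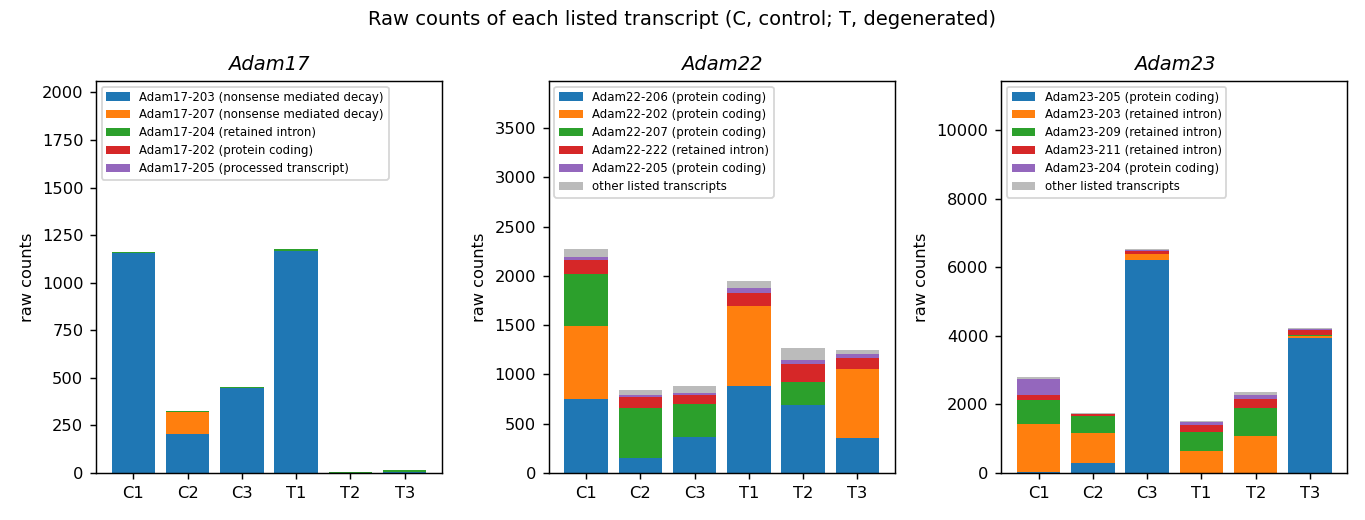
Raw counts of the listed transcripts of Adam17, Adam22 and Adam23 in each library (C, control; T, degenerated), stacked by transcript and coloured by transcript within each gene. Single transcripts, such as Adam17-203 and Adam23-205, hold most counts in some libraries and 0 to 29 counts in others of the same group.

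Of all members, 177 of 367 annotated transcripts were in the table, and only 7 tested members had every annotated transcript listed. The transcript with most counts was protein-coding in 42 of the 50 tested members. It was not in Adam11, Adam15, Adam17, Adamts10, Adamts16, Adamtsl1, Adamtsl5 and Mmp14, and 3 of these, Adam11, Adam15 and Adamts10, had no protein-coding transcript listed. Values of most members are therefore sums over a part of their transcripts.

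ADAMTS genes with known activity against proteoglycans included the most abundant one. Adamts1 had 704, 332 and 138 CPM in the control and 521, 667 and 428 CPM in the degenerated libraries, so that the control range alone spanned all degenerated values (0.46 ± 0.56). Its log2 fold change was 1.18 without control replicate 1, with an edgeR p of 0.0421 before adjustment, and 0.05 without control replicate 3. Adamts5, the main aggrecanase of mouse cartilage, had 158, 95.8 and 113 CPM against 81.9, 115 and 74.0 CPM (-0.44 ± 0.25), and Adamts15 had 19.5, 8.98 and 15.8 CPM against 34.3, 18.6 and 16.0 CPM (0.64 ± 0.42). Adamts4 and Adamts9 had log2 fold changes of 0.26 ± 0.48 and 0.39 ± 0.42. None of these groups was separate.

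Procollagen N-proteinases, which trim fibrillar collagens, gave a median log2 fold change of -0.19 over 3 genes. Adamts14 had 7.61, 12.3 and 6.64 CPM against 7.05, 3.45 and 6.24 CPM (-0.67 ± 0.41), Adamts2 had 0.23 ± 0.21 and Adamts3 had -0.19 ± 0.34. Adamts10, a protein of microfibrils, had 89.0, 98.9 and 84.3 CPM against 85.6, 62.3 and 71.6 CPM, and its log2 fold change of -0.31 ± 0.16 had an edgeR adjusted p of 0.595. Adamtsl1, which lacks the protease domain, had 60.3 to 104 CPM in the control and 65.3 to 92.5 CPM in the degenerated libraries (-0.03 ± 0.26).

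Of the 16 members below the filter, 6 had no count in any library: Adam3, Adam18, Adam26b, Adamts18, Mmp12 and Mmp21. A count of 0 allows up to 3 counts per library. The other 10 had at most 57 counts over all libraries together. Adam30 had 0 counts over the control libraries and 8, 1 and 2 counts over the degenerated ones, which was too few to be tested. Several of these ADAMs are known from the testis.

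The wider pathway was read from 2 lists. The first held genes that activate, carry or inhibit these enzymes and genes of related proteolysis, such as Bmp1 and Pcolce. The second held known substrates and ligands of these enzymes. Of 37 genes in the first list, 25 were tested and 0 were called by edgeR's test. Among the 25, 2, A2m and Rhbdf1, had an unadjusted p under 0.05 in that test (9.68% of all genes), and the median log2 fold change was 0.05. The degenerated libraries were entirely above the controls for 5 of them, against 10.3% of all genes, and entirely below for 0, against 7.37%. They were A2m, a plasma protein that traps proteases (143, 139 and 146 CPM against 296, 241 and 164 CPM, log2 fold change 0.71 ± 0.22), Rhbdf1, a carrier of Adam17 (22.0, 16.1 and 16.1 CPM against 28.7, 26.3 and 37.3 CPM, 0.77 ± 0.24), the plasminogen activator Plat (0.62 ± 0.25), Pcolce, an enhancer of procollagen processing (0.67 ± 0.32), and Frmd8, another partner of Adam17 (0.24 ± 0.12). Their lowest adjusted p was 0.410 in edgeR's test.

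Of 54 known substrates and ligands, 35 were tested, of which 3 were called higher and 0 lower by the unadjusted criterion (8.57%, against 2.01% of all genes called higher and 0.715% called lower), with a median log2 fold change of 0.0. Groups were separate for 5 above and 5 below the controls, against 10.3% and 7.37% of all genes, and none passed the adjusted p. Among them, Cxcl16 lay above (0.47 ± 0.21), and Cdh2 (-0.41 ± 0.13) and Nrg1 (-4.18 ± 1.57) lay below, with none of these called. Nrg1 had 41.0 CPM in control replicate 3 and at most 1.52 CPM in any other library. Sdc4, a heparan sulfate proteoglycan of the cell surface, rose from 378, 327 and 407 CPM in the control to 594, 590 and 633 CPM in the degenerated libraries. Its groups were far apart, with a log2 fold change of 0.71 ± 0.12, an unadjusted p of 0.000778 and, by edgeR, an adjusted p of 0.216. The TNF receptor Tnfrsf1a rose from 157, 190 and 174 CPM to 253, 240 and 238 CPM (0.49 ± 0.11, adjusted p of 0.307 in edgeR's test), and E-cadherin, Cdh1, rose from 337, 321 and 305 CPM to 403, 488 and 455 CPM (0.48 ± 0.11, adjusted p of 0.320 in the same test). The study names Sdc4, Cdh1, Comp, Mmp9 and Timp2 for these samples, so that their values here are no independent evidence of a direction.

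Among matrix substrates, the proteoglycan Bcan of neural matrix had 51.9, 56.9 and 42.8 CPM in the control and 33.4, 35.2 and 25.9 CPM in the degenerated libraries (-0.68 ± 0.20, adjusted p of 0.398 in edgeR's test). Comp, a cartilage protein, had 68.3, 30.3 and 68.9 CPM against 28.5, 22.8 and 29.8 CPM (-1.05 ± 0.35, adjusted p of 0.432 in edgeR's test). Both had separate groups and neither was called. Aggrecan (Acan), versican (Vcan) and fibronectin (Fn1) had overlapping groups, with log2 fold changes of -0.09 ± 0.32, -0.06 ± 0.45 and 0.16 ± 0.41. Of the LGI ligands of Adam22 and Adam23, Lgi4, known from Schwann cells, had 2.25, 1.91 and 1.60 CPM against 4.17, 3.17 and 3.95 CPM (0.97 ± 0.32) and Lgi3 had 231, 220 and 224 CPM against 164, 213 and 118 CPM (-0.45 ± 0.22). Their groups were separate in opposite directions, and neither was called.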

How the data were processed

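RNA of 6 modiolus libraries, 3 control and 3 degenerated as labelled, was sequenced by the authors on an Illumina platform. The study's methods name Hisat2 for alignment and StringTie for quantification, while the submitters' processing notes list Bowtie 0.12.2 and the builds mm8 and mm10. The authors deposited raw counts per Ensembl transcript as whole numbers for 65535 transcripts. Which tool made the counts and with which strand setting is not stated in the sources used, and the TruSeq kit does not mark strand.

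Counts of the listed transcripts were summed per gene with GENCODE M21 (GRCm38). The 263 transcripts that did not match held 0.125% of all counts and were left out. Totals were 15154155, 14418480 and 15549319 counts for control replicates 1 to 3, and 14841769, 14262782 and 12480876 for degenerated replicates 1 to 3. Pearson's r of log2 CPM was 0.883 to 0.926 within groups.

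The fit across all genes used edgeR 4.0.16 under R 4.3.3, filtered with filterByExpr, scaled by TMM (factors of 0.983 to 1.02) and tested by the robust quasi-likelihood F test without covariates, and p-values were adjusted over the 14118 genes tested. The common biological coefficient of variation was 0.488. Standard errors were taken as the absolute log2 fold change divided by the square root of F, CPM used the TMM factors, and TPM used the annotated lengths of listed transcripts. For a gene at 0, up to 3 counts were allowed, which covers counting error only. Steps were tested on simulated data.

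The members, lists, rules and alternatives were chosen with earlier results of these data known. Named members were all Timp genes, Mmp2, Mmp3, Mmp9, Mmp13, Mmp14, Adam10, Adam17, and per family the 3 with the highest mean TPM and the 2 with the largest absolute log2 fold change. Other members were named after their values were seen. From the lists, genes past the unadjusted criterion were named by rule and the others after their values were seen. Alternatives were limma-voom (limma 3.58.1), the exact test of edgeR, DESeq2 1.42.0, RLE and upper quartile normalization, no filter, a minimum mean count of 10, a replicate block, genes with every transcript listed, and each library left out. Further marker lists covered hair cells, osteoblasts, muscle and fibroblasts. Summed, hair cell markers took 503 to 720 CPM in the control and 167 to 455 CPM in the degenerated libraries, with 2 called lower. Osteoblast markers took 647 to 1069 and 300 to 514 CPM, with 2 called lower. These calls were 28.6% of the tested hair cell markers and 40.0% of the tested osteoblast markers, against 0.715% of all genes called lower. The muscle list also held Pvalb, a neuronal marker, which was its 1 gene called lower and had 722 to 817 and 323 to 512 CPM, while Myh4, Myh1, Ckm and Acta1 were at most at 1.32 CPM outside control replicate 3. Summed, fibroblast markers took 1514 to 1937 and 1138 to 1567 CPM, with 0 called, and macrophage markers 527 to 618 and 607 to 816 CPM.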

Additional observations from a re-analysis of the deposited data

How the results depend on the processing

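DESeq2 and edgeR's exact test each called 1 member lower, Mmp9, with log2 fold changes of -1.66 and -1.64. Of all 14118 genes, DESeq2 called 306 lower and the exact test 130. Over the 7 members with every transcript listed the median log2 fold change was -0.33, and 0 of them had groups that did not overlap, higher or lower; fewer genes were tested there. With each library left out in turn, members called higher numbered 0 to 2 and called lower 0 to 1. In these fits, 1.76% to 3.38% of all genes were called in either direction. Members with separate groups numbered 3 to 13 (higher) and 2 to 7 (lower). Fewer libraries make separation easier, and the share of all genes was not computed there, so that these counts cannot be set against it. The median log2 fold change was -0.07 to 0.23. The sign turned in some of these fits, whose values ran from -6.05 to 0.06 for Adam17, -0.22 to 0.23 for Adamtsl1, -0.06 to 0.14 for Adam9, -0.84 to 0.38 for Adam23, -1.79 to 0.54 for Mmp3, -0.69 to 0.19 for Timp1 and -1.35 to 2.1 for Adam28; the cause was not tested beyond the single libraries named above. Members at an adjusted p under 0.05 numbered 0 under every alternative.

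With the replicate number as a block, 0 members were called and Mmp9 had a log2 fold change of -1.69, while calls over all genes numbered 160 higher and 58 lower. Deviations from the group mean had correlations of 0.143, -0.0856 and 0.0656 between same-numbered libraries, and not every library correlated best with its own number. With so few libraries, these values cannot show whether same-numbered libraries share a batch, which was not tested.

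Counts were few for the members below the filter and for Timp2, with 80 counts over all libraries; depth and transcripts that are not listed cannot be told apart here.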
